A study of Homo sapiens with 22 samples.

Results

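The 5 genes described here encode the plasminogen activators PLAU and PLAT, the urokinase receptor PLAUR, and the inhibitors SERPINE2 and SERPINB2. They were chosen by name, and all 5 were found among the 36859 genes measured by RNA-seq in 22 libraries of RPTEC, a human renal proximal tubule epithelial line immortalized with hTERT. All 5 passed the filter on low values that left 14585 genes for testing, and SERPINB2 passed it only through the 2 libraries of KO1. Plasminogen is an inactive protease precursor in plasma and tissue fluid that urokinase (PLAU) and tissue-type plasminogen activator (PLAT) cleave to plasmin, which digests fibrin and matrix proteins and activates other proteases. Urokinase works largely at the cell surface, held there by its GPI-anchored receptor PLAUR, while serpins trap the activators in inactive complexes. Tubule cells secrete urokinase into urine, and the balance of activators and inhibitors is a classic subject in kidney fibrosis and in the migration of cells that undergo an epithelial to mesenchymal transition (EMT).

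The study asked how loss of SETD2, the enzyme that trimethylates lysine 36 of histone H3, compares with TGF-β as a driver of EMT, and each of 11 groups held 2 libraries. In media with 2% serum there were WT cells, WT cells treated for 72 h with TGF-β at 10 ng/mL, 2 clones with SETD2 knocked out (KO1 and KO2), and cells labelled KO2_Rescue. In media with 10% serum there were Rescue1 and Rescue2, clones of KO cells that carry a FLAG-tagged SETD2 lentivirus, and WT cells transduced with an empty eGFP vector (WT_eGFP) or with SOX2, OCT2 or PRRX1 (WT_SOX2, WT_OCT2, WT_PRRX1). Each KO and Rescue line is a single clone, so that a difference between 2 such lines includes whatever else differs between clones, whereas the transduced WT cells were selected in bulk. The sources do not say whether the 2 libraries of a group came from separate cultures, so the p-values measure the spread between these libraries, which may be technical.

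Values are normalized counts, obtained by inverting the deposited log2 scale. Log2 changes come from 1 limma fit of all 22 libraries, and a gene was called when its Benjamini-Hochberg adjusted p was below 0.05 and its log2 change was above 1 or below -1. SETD2 mRNA averaged 1956 in WT, 1088 in KO1, 1051 in KO2 and 827 in the libraries labelled KO2_Rescue, which therefore goes against that label, while Rescue1 and Rescue2 libraries held 9764 to 10445. Of 12 proximal tubule markers, 4 (LRP2 and the organic anion transporters SLC22A6 and SLC22A8 among them) never exceeded 3 normalized counts, and of 6 renal epithelial genes PAX8, PAX2 and KRT8 were above 400 in every library, CDH16 and KRT18 went down to 0 and 61.9 in single libraries, and EPCAM averaged 2907 in WT, 257 in KO1 and 869 in KO2. Of these 6 genes, 1 was called higher (PAX8) and 2 lower (EPCAM and KRT8) in KO1, and none higher and 1 lower (EPCAM) in KO2. The summed level of 7 fibroblast genes averaged 6646 in WT, 47090 with TGF-β, 230074 in KO1, 101876 in KO2 and 40348 in cells labelled KO2_Rescue, led by DCN in both KO clones and by COL1A1 with TGF-β. DCN made up 228207 of the KO1 sum, whereas COL1A1 averaged 6226 in WT and 928 in KO1, and 4 of the 7 were called higher and 1 (COL3A1) lower in KO1, against 4 higher and none lower in KO2 and 3 higher and none lower with TGF-β. That sum was 857 to 5928 in the 6 groups with 10% serum, and its part in the results below was not tested. Leukocyte and endothelial lists summed to at most 389 and 157 in any library. Some genes that every cell uses were listed at very low values or 0 (POLR2A 0 to 117, HPRT1 0 to 196), so levels are compared between groups for 1 gene at a time, and a gene listed at 0 is not called absent.

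PLAT (ENSG00000104368), tissue-type plasminogen activator, had the widest range of the 4 members detected in every library, 31.3-fold between its highest and lowest group mean. The gene spans bases 42174718 to 42207709 of chromosome 8, minus strand (GRCh38, GENCODE 44). WT libraries held 300 and 395 normalized counts of PLAT. The KO1 libraries held 7722 and 6920. The KO2 libraries held 1810 and 1685. As in all bulk libraries, more cells with PLAT and more PLAT RNA per cell cannot be told apart. No KO library overlapped with WT, and KO1 was 4.18-fold above KO2 in the fit. PLAT rose 21.2-fold in KO1 (log2 change 4.40 ± 0.12 SE, adjusted p = 1.15e-12), and it rose 5.06-fold in KO2 (2.34 ± 0.12, adjusted p = 2.56e-09). The clones also differed from each other, with PLAT lower in KO2 than in KO1 by 2.06 ± 0.12 on the log2 scale (log2 change -2.06, adjusted p = 5.25e-08), although a fit of those 4 libraries alone gave an adjusted p of 0.0576. In a supplementary table of the study the KO1 and KO2 headings appear exchanged relative to the library labels for nearly all genes, PLAT among them. Which clone was the higher, and which one KO2_Rescue is set against, therefore rests on the library labels.

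PLAT was not raised by TGF-β. The treated WT libraries held 225 and 243, both below the 2 untreated libraries. The log2 change was -0.55 ± 0.12 with an adjusted p of 0.00554, which is under the fold threshold. Against these treated cells, PLAT rose by 3.93 ± 0.11 on the log2 scale in the KO clones together (adjusted p = 6.14e-13). The KO libraries ran from 1685 to 7722, and this SE leaves out the spread between the clones.

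PLAT in the Rescue clones, in 10% serum, lay far above the WT libraries in 2% serum. Rescue1 held 5399 and 4797, and Rescue2 held 2470 and 2713. The cells labelled KO2_Rescue, whose SETD2 mRNA was no higher than in KO2, held 1749 and 1763, between the 2 KO2 libraries. Rescue clones against both KO clones gave a log2 change of 0.02 ± 0.09 (adjusted p = 0.858), a mean over 2 opposite differences, because against KO1 alone the change was -1.01 (adjusted p = 2.07e-06) and against KO2 alone 1.05 (adjusted p = 2.34e-06). The sources do not say which KO clone gave the Rescue clones, and serum was 2% in the KO clones and 10% in the Rescue clones.

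The transduced WT cells show how much of this range was reached without SETD2 loss. WT_eGFP libraries held 1396 and 1499 normalized counts of PLAT, above both WT libraries and close to KO2. PLAT rose 4.19-fold from WT to WT_eGFP (log2 change 2.07 ± 0.12, adjusted p = 2.36e-08), a comparison in which serum, vector and selection all change and cannot be told apart. With serum matched, PLAT was higher in the Rescue clones than in WT_eGFP, by 1.33 ± 0.11 on the log2 scale (adjusted p = 3.44e-07), and the groups did not overlap. In order, KO1, Rescue1 and Rescue2 stood apart from each other and from the rest, and then KO2_Rescue and KO2 overlapped. KO2 (1685 and 1810) also overlapped with WT_PRRX1 (1416 and 1688), and WT_PRRX1, WT_eGFP and WT_OCT2 overlapped in turn. WT_SOX2 lay within the WT_PRRX1 range, WT lay below all of these, and TGF-β was last.

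SERPINE2 (ENSG00000135919), protease nexin-1, inhibits thrombin, urokinase and tissue-type plasminogen activator in the pericellular space, and its levels ran opposite to those of PLAT. It spans bases 223975045 to 224039318 of chromosome 2, minus strand. WT libraries held 5270 and 4299 normalized counts. KO1 held 850 and 1011. KO2 held 919 and 873. The 4 KO libraries were all below the WT libraries and overlapped with each other. SERPINE2 fell 5.13-fold in KO1 (log2 change -2.36 ± 0.13, adjusted p = 1.63e-09) and 5.31-fold in KO2 (-2.41 ± 0.13, adjusted p = 2.69e-09). Between the clones the change was -0.05 ± 0.13 (adjusted p = 0.851), so that the clones, which stood 4.18-fold apart for PLAT, were not told apart for SERPINE2.

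With TGF-β, SERPINE2 libraries held 5947 and 6073, both above WT. The log2 change of 0.34 ± 0.13 did not pass the test (adjusted p = 0.0913). The KO clones were lower than TGF-β-treated cells by a log2 change of -2.72 ± 0.11 (adjusted p = 5.88e-11).

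SERPINE2 was lowest in the Rescue clones, the lines with the most SETD2 mRNA. Rescue1 held 300 and 385, and Rescue2 held 664 and 596, all 4 below every KO library. Against the KO clones the log2 change was -0.98 ± 0.09 (adjusted p = 4.51e-07), just under the fold threshold, while serum also changed. It passed the threshold without KO1 replicate 1 (-1.04), Rescue1 replicate 2 (-1.07) or Rescue2 replicate 1 (-1.02). Once all libraries were brought to 1 total it was -0.58 (adjusted p = 3.96e-05), further under the threshold. Under that scaling the Rescue2 mean of 720 lay close to the KO1 mean of 748. Cells labelled KO2_Rescue held 809 and 887 and did not differ detectably from KO2 (log2 change -0.08 ± 0.13, adjusted p = 0.811). WT_eGFP libraries held 1108 and 1150, near the KO level. SERPINE2 fell from WT to WT_eGFP by a log2 change of -2.08 ± 0.13 (adjusted p = 3.22e-08), and with serum matched it was lower again in the Rescue clones (-1.29 ± 0.11, adjusted p = 6.77e-07).

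**Figure D1:**
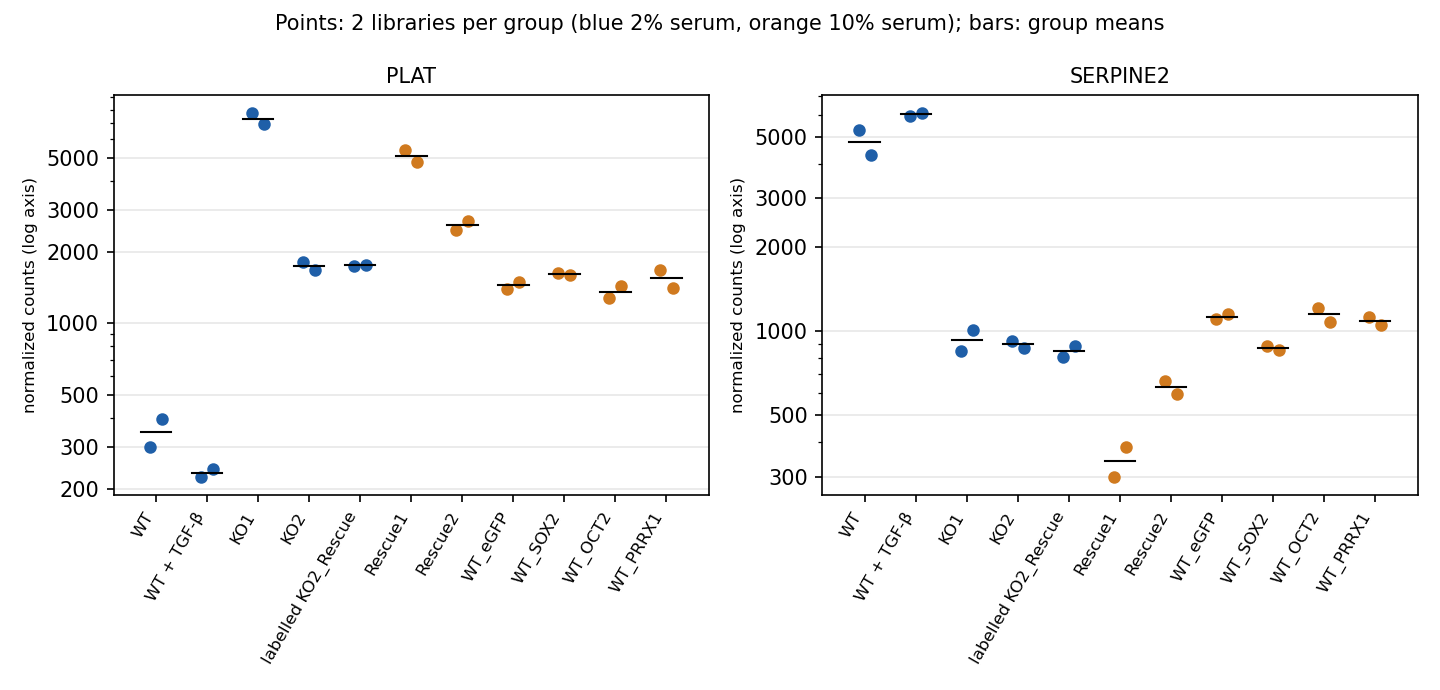
PLAT (left) and SERPINE2 (right) in normalized counts on log axes for the 11 groups. Points are the 2 libraries of a group (blue 2% serum, orange 10% serum) and bars the group means. WT and TGF-β-treated WT lie at the bottom for PLAT (225 to 395) and at the top for SERPINE2 (4299 to 6073), apart from all 18 other libraries in both panels.

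The 2 genes were also set against each other within each library as the log2 ratio of SERPINE2 to PLAT. The level of this ratio has no meaning by itself because the genes are not compared per length, and it moves when either gene changes. Between KO1 and KO2, PLAT changed by -2.06 and SERPINE2 by -0.05. The ratio averaged 3.79 in WT and 4.68 with TGF-β. It averaged -2.98 in KO1, -0.96 in KO2 and -1.05 in cells labelled KO2_Rescue. It averaged -3.90 in Rescue1 and -2.04 in Rescue2. The means of the 4 transduced WT groups lay between -0.90 (WT_SOX2) and -0.25 (WT_OCT2), all above the KO and Rescue groups and far below WT. Only WT and TGF-β-treated WT libraries had a positive ratio. Over the 22 libraries Pearson's r between SERPINE2 and PLAT was -0.90 on the log2 scale, a description over libraries that share groups, clones and serum.

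**Figure D2:**
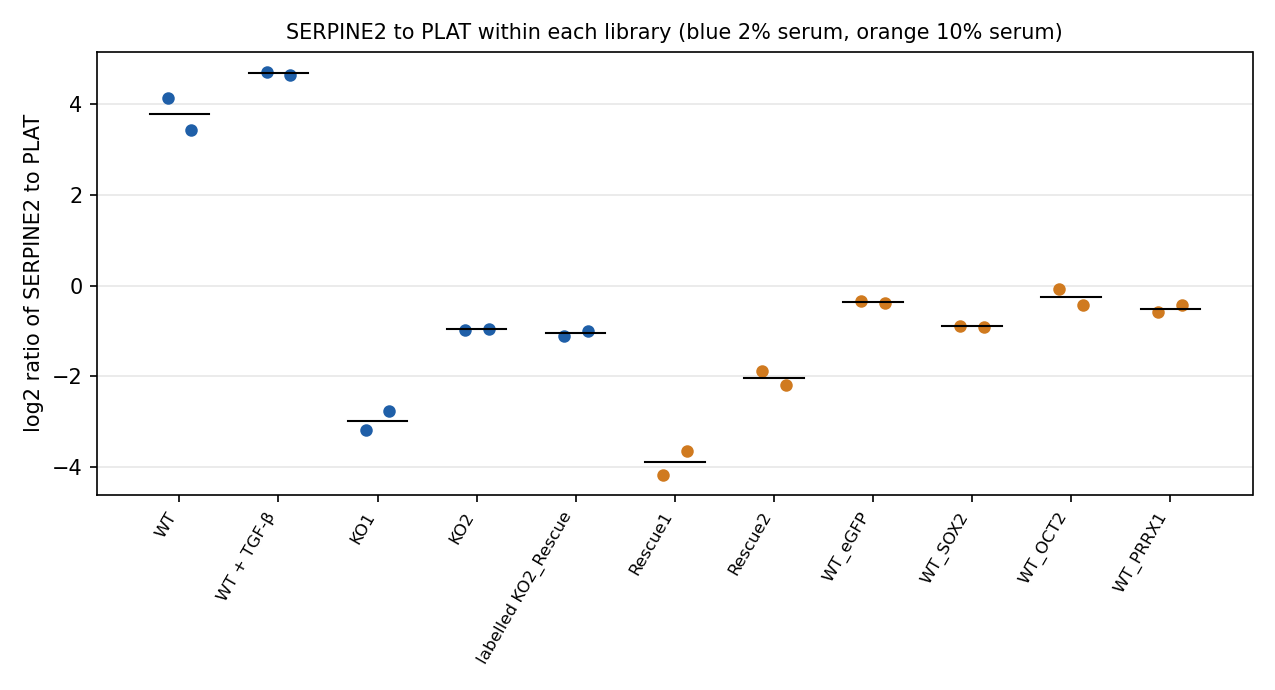
Log2 ratio of SERPINE2 to PLAT normalized counts in each of 22 libraries by group, with group means as bars. Blue points had 2% serum and orange points 10% serum. The 4 WT and TGF-β libraries lie between 3.44 and 4.72 and the other 18 between -4.17 and -0.08.

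PLAU (ENSG00000122861), urokinase, is the activator that PLAUR binds. It spans bases 73909177 to 73917496 of chromosome 10, plus strand, where the antisense lncRNA C10orf55 overlaps it. The library kit keeps strand, but the setting used to assign reads is not given in the sources used here, so PLAU and C10orf55 reads may be mixed. Duplicates of PLAU differed far more than those of the other members, and every PLAU result is limited by this spread. WT libraries held 173 and 509 normalized counts, and TGF-β-treated libraries 223 and 531. KO1 held 69.1 and 126, and KO2 held 16.5 and 94.3. All 4 KO libraries were below the 4 WT and TGF-β libraries, whose groups overlapped with each other.

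PLAU fell in KO2 by a log2 change of -2.87 ± 0.77 (adjusted p = 0.0108). The KO1 change of -1.66 ± 0.77 did not pass the test (adjusted p = 0.105), but bringing all libraries to 1 total gave -2.06 (adjusted p = 0.0442), and KO2 against KO1 gave -1.21 ± 0.77 (adjusted p = 0.329). The KO2 call rested on single libraries. Without KO2 replicate 1 the change was -1.64 (adjusted p = 0.169), and without WT replicate 2 it was -2.09 (adjusted p = 0.12). KO clones against TGF-β-treated cells gave -2.48 ± 0.67 (adjusted p = 0.009), which was lost without TGF-β replicate 2 (-1.85, adjusted p = 0.136). Fits of only the groups compared lost both calls (adjusted p = 0.18 for KO2 against WT and 0.0858 for KO against TGF-β). TGF-β against WT gave 0.21 ± 0.77 (adjusted p = 0.922).

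The Rescue clones held more PLAU than every KO library. Rescue1 held 416 and 539, and Rescue2 held 1886 and 565. PLAU rose 11.3-fold against the KO clones (log2 change 3.50 ± 0.55, adjusted p = 9.25e-05), while serum also changed. Without KO2 replicate 1 the log2 change was 2.88 and without KO2 replicate 2 it was 4.11. Against the serum-matched WT_eGFP libraries, at 457 and 1237, the groups overlapped and the log2 change was -0.10 ± 0.67 (adjusted p = 0.938). WT_eGFP itself overlapped with WT (1.34 ± 0.77, adjusted p = 0.234). Cells labelled KO2_Rescue held 122 and 140, above both KO2 libraries, with a log2 change of 1.69 ± 0.77 that did not pass the test (adjusted p = 0.216). Each library with 10% serum held at least 304, and each KO and KO2_Rescue library held at most 140.

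PLAUR (ENSG00000011422), the receptor that focuses urokinase at the cell surface, had the narrowest range, 2.97-fold between group means. It spans bases 43646095 to 43670547 of chromosome 19, minus strand. WT libraries held 220 and 310 normalized counts, and TGF-β-treated libraries 190 and 236. KO1 held 656 and 609, and KO2 held 531 and 414. All 4 KO libraries exceeded the other 18 libraries, although the KO2 mean lay below that of Rescue2 once all libraries were brought to 1 total. PLAUR rose 2.42-fold in KO1 (log2 change 1.27 ± 0.20, adjusted p = 0.00012). In KO2 the change was 0.84 ± 0.20 (adjusted p = 0.00484), under the fold threshold, and it passed that threshold without WT replicate 2 (1.09) or without KO2 replicate 2 (1.02). Under that scaling, which shifted the median of all genes in KO1 by -0.392, the KO1 change was 0.86 and also under the threshold.

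PLAUR was thus higher, and PLAU lower, in all 4 KO libraries than in both WT libraries. Against TGF-β-treated cells the KO clones rose by 1.36 ± 0.17 on the log2 scale (adjusted p = 1.77e-05), and TGF-β against WT gave -0.30 ± 0.20 (adjusted p = 0.378). Rescue1 held 337 and 381, Rescue2 364 and 397, and cells labelled KO2_Rescue 367 and 380. These 6 libraries lay below the KO libraries and above WT. Rescue against KO gave -0.56 ± 0.14 (adjusted p = 0.0047) and Rescue against WT_eGFP, whose libraries held 243 and 227, gave 0.65 ± 0.17 (adjusted p = 0.0106), both under the fold threshold. Rescue against KO became -0.16 (adjusted p = 0.376) once all libraries were brought to 1 total. KO2_Rescue against KO2 gave -0.33 ± 0.20 (adjusted p = 0.392). WT_eGFP against WT gave -0.15 ± 0.20 (adjusted p = 0.647), a comparison in which PLAT and SERPINE2 were called.

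**Figure D3:**
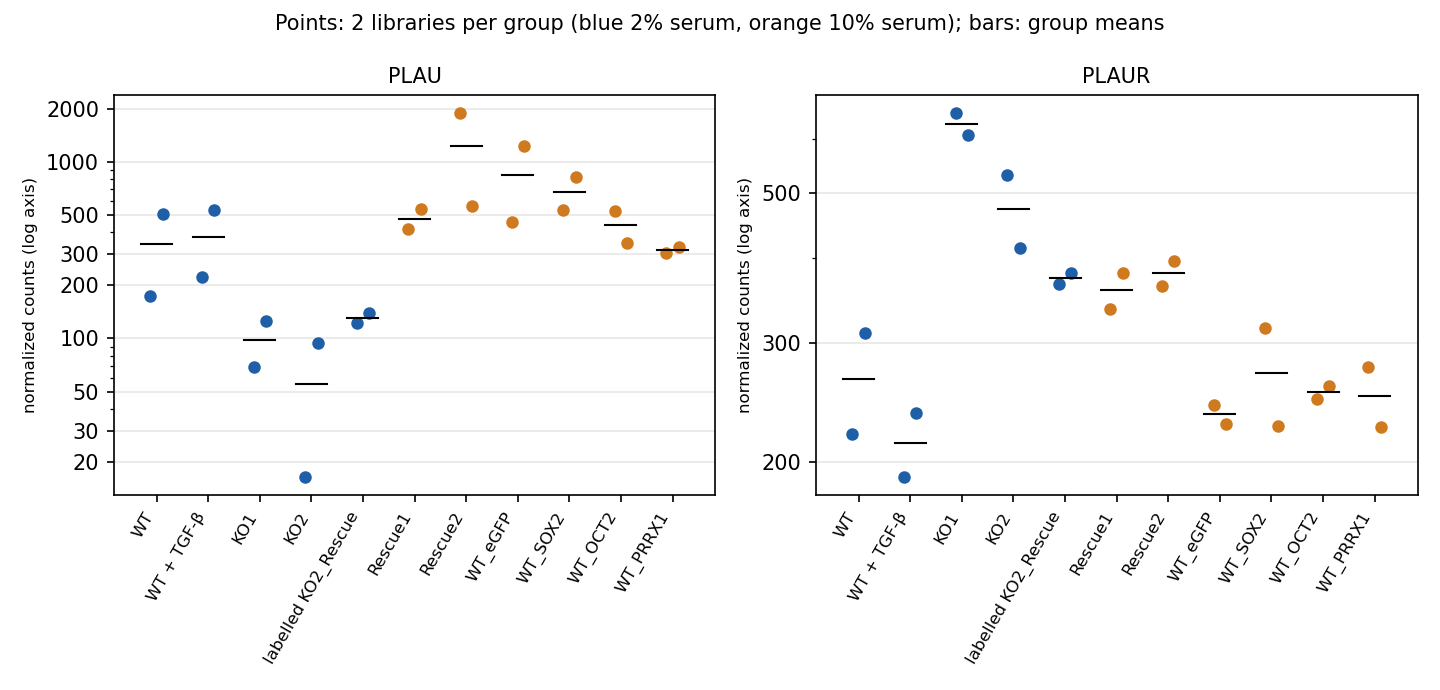
PLAU (left) and PLAUR (right) in normalized counts on log axes for the 11 groups, with the 2 libraries of each group as points (blue 2% serum, orange 10% serum) and group means as bars. The 4 KO libraries hold 16.5 to 126 of PLAU, all below the 16 libraries outside KO1, KO2 and KO2_Rescue, and the highest PLAUR (414 to 656). Duplicates of PLAU lie up to 5.72-fold apart.

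SERPINB2 (ENSG00000197632), plasminogen activator inhibitor 2, is a clade B serpin that inhibits urokinase and is known as an inducible gene of monocytes and keratinocytes. It spans bases 63871692 to 63903888 of chromosome 18, plus strand. KO1 libraries held 59.8 and 44.6 normalized counts. Rescue1 held 0 and 1.97, WT_SOX2 held 1.34 and 0, and the gene was listed at 0 in all other libraries, both KO2 libraries among them, which made 18 of 22 libraries at 0. A level of 3 reads, the limit that a count of 0 allows for counting error alone, corresponds to 2.37 to 4.71 normalized counts over the libraries. SERPINB2 was thus detected above that limit only in KO1. Because the gene entered the fit only through its KO1 values, it had to differ there, so its levels are given as a description with no test, and no fold is given against a gene listed at 0. That the detected clone is KO1 rests on the library labels, as for PLAT.

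Promoter sequences are shown for PLAUR and SERPINB2, 2 of the members that were highest in KO1, and for SERPINE2, which fell in both clones. The sequences are the 250 bases before the RefSeq start (GRCh38.p14), written 5′ to 3′ on the strand of the gene, and capitals mark matches to the AP-1 motif TGANTCA or to TATAAA on either strand. They cover chr19:43670170-43670419 on the minus strand for PLAUR, chr18:63887455-63887704 on the plus strand for SERPINB2, and chr2:224038641-224038890 on the minus strand for the upstream of 2 starts of SERPINE2.
PLAUR: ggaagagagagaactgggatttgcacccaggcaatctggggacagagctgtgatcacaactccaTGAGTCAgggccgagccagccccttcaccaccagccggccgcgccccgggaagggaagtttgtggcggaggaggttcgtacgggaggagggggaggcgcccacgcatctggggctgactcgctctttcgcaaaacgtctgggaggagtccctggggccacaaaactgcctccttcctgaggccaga
SERPINB2: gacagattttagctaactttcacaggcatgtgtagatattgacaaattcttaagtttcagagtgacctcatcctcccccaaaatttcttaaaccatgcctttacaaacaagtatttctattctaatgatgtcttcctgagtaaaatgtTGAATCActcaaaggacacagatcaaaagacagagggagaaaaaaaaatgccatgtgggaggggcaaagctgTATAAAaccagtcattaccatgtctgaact
SERPINE2: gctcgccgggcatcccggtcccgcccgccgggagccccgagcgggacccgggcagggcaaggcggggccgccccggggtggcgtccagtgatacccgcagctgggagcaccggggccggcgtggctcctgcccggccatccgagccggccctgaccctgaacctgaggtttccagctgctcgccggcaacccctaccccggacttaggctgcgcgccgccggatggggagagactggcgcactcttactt
The AP-1 letters began 186 bases before the start in PLAUR and 102 bases before it in SERPINB2. They were found in 6.57% of 35116 RefSeq promoters of the same length. SERPINB2 also held TATAAA 30 bases before its start, a motif present in 10.7% of promoters. The SERPINE2 window held neither, but had 2 matches to the GC box GGGCGG (in 42.6% of promoters) and 2 to the E-box CANNTG (61.8%). PLAU, with 2 RefSeq starts, held 3 GC boxes before the downstream start at 66, 51 and 40 bases, and no AP-1 letters. The SMAD letters CAGAC occurred in PLAUR, SERPINB2 and the downstream PLAU start, as in 38.0% of all promoters. The octamer ATGCAAAT bound by OCT factors (1.63%) was in none of the 6 windows read for 4 members. A match is a description of letters and no evidence of binding.

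Counted over the 4 members detected in every library, 3 were called in KO1 against WT, where 25% of all genes tested were called, and 3 in KO2, where 16.3% were. None was called with TGF-β, where 7.84% of genes were. Between the clones 1 of 4 was called (PLAT) beside 6.97% of genes, and 4 of 4 for KO against TGF-β beside 20.2%. Rescue against KO called 1 (PLAU) beside 23.3%, and Rescue against WT_eGFP called 2 (PLAT and SERPINE2) beside 13.1%. KO2_Rescue against KO2 called none beside 4.17%, and WT_eGFP against WT called 2 (PLAT and SERPINE2) beside 12.7%. Several of these comparisons share their WT, KO or WT_eGFP libraries. The median change of all genes was within 0.03 of 0 in each of them.

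Transduction of WT cells with SOX2, OCT2 or PRRX1, factors tied to stemness or mesenchymal state, called no member against WT_eGFP. So few genes were called in these comparisons (0.0206%, 0.0343% and 0.0411%) that no member could be set against them. The largest change among members detected in every library was for PLAU with PRRX1, whose libraries held 304 and 330 against 457 and 1237 (log2 change -1.24 ± 0.77, adjusted p = 1). SERPINE2 in WT_SOX2 held 882 and 853, below both WT_eGFP libraries (-0.38 ± 0.13, adjusted p = 0.551, unadjusted p = 0.00998 in limma). PLAT changes were between -0.09 and 0.16, each with an SE of 0.12.

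**Figure D4:**
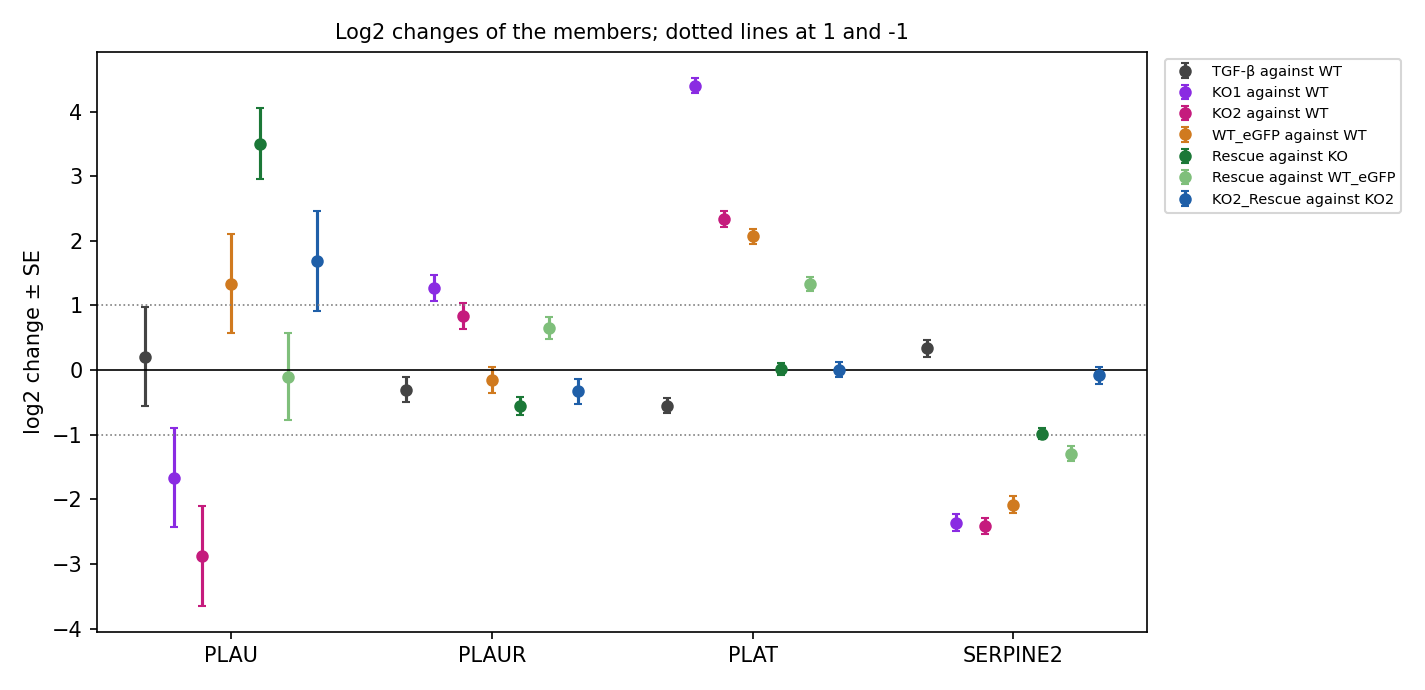
Log2 changes with SE of PLAU, PLAUR, PLAT and SERPINE2 in 7 comparisons, on log2(normalized count + 1), with dotted lines at 1 and -1. For PLAT and SERPINE2 the KO1, KO2 and WT_eGFP changes from WT point the same way and lie beyond the dotted lines (4.40, 2.34 and 2.07 for PLAT), while TGF-β changes of all 4 genes lie within them.

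For the gene lists that follow, the shares of all genes tested that were called higher were 12% in KO1, 9.02% in KO2 and 3.58% with TGF-β, and those called lower 13.1%, 7.29% and 4.26%. Among genes that make or dock plasmin, 7 of 8 listed were tested and none rose in KO1, KO2 or with TGF-β against WT, while 3 fell in KO1, 1 in KO2 and 1 with TGF-β. The median changes were -0.75, -0.08 and 0.40. ANXA2, a cell surface co-receptor for plasminogen and PLAT, fell in KO1 from 60382 ± 1407 (SD, n = 2) to 27353 ± 1875 (log2 change -1.14 ± 0.05, adjusted p = 9.11e-11). In KO2 ANXA2 averaged 45712, which was not called, and in cells labelled KO2_Rescue it averaged 66774. The Rescue clones held 78089 ± 1643 (1.14 ± 0.03 against both KO clones, adjusted p = 1.44e-12), where serum also differed. The serum-matched WT_eGFP cells averaged 58834. F12, coagulation factor XII, fell in KO1 (-1.35 ± 0.39, adjusted p = 0.012) and in KO2 too (-1.10 ± 0.39, adjusted p = 0.0458). S100A10, the partner of ANXA2, was listed at 0 in KO1 and averaged only 11 in WT, and its call (adjusted p = 0.0281) rested on these low values.

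Other inhibitors of plasmin or its activators, 5 of 8 tested, rose in 2 cases in KO1 and 3 in KO2 and fell in 1 with TGF-β. Their median changes were 1.09, 1.11 and 0.03. SERPINI1, neuroserpin, which inhibits PLAT, rose from 20.6 ± 0.818 to 152 ± 71.1 in KO1 (2.74 ± 0.53, adjusted p = 0.000702) and to 120 ± 14.4 in KO2 (2.48 ± 0.53, adjusted p = 0.0022). In the Rescue clones SERPINI1 averaged 22.2 ± 8.47 (n = 4 libraries of 2 clones), a change of -2.57 ± 0.37 against KO (adjusted p = 4.58e-05). Serum differed in that comparison, and the serum-matched WT_eGFP cells averaged 9.05. SERPINA5, protein C inhibitor, rose in KO2 from 2.72 to 74.1 (adjusted p = 0.00676), and SERPINF2, the plasmin inhibitor alpha-2-antiplasmin, fell from 20.9 in WT to a listed 0 with TGF-β (adjusted p = 0.0133).

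Of the partners and clearance receptors of PLAUR, 11 of 12 were tested, and 3 rose with TGF-β, 1 rose and 1 fell in KO1, and 1 rose in KO2. The median change was 0.31 in KO1, 0.00 in KO2 and 0.60 with TGF-β. LRP1, the endocytic receptor that clears protease and serpin complexes, held 2267 ± 149 in WT and rose to 22502 ± 1040 in KO1 (3.31 ± 0.10, adjusted p = 2.41e-12), to 12515 ± 585 in KO2 (2.47 ± 0.10, adjusted p = 1.22e-10) and to 5799 ± 756 with TGF-β (1.35 ± 0.10, adjusted p = 4.24e-07). LRP1 fell to 3520 ± 773 in the Rescue clones. The integrins ITGB3 (1.37 ± 0.08, adjusted p = 4.06e-08) and ITGB1 (1.30 ± 0.15, adjusted p = 2.51e-05) rose with TGF-β and were lower in the KO clones than in TGF-β-treated cells, by log2 changes of -1.72 and -1.48.

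The tissue factor and thrombin genes, a neighbouring protease system, had larger median changes in the KO clones than the other 4 lists. Of 6 tested among 9, 5 rose in KO1 and 4 in KO2, with 1 up and 1 down with TGF-β, and the medians were 4.22, 3.42 and 0.48. THBD, thrombomodulin, rose from 31.2 ± 0.110 in WT to 5766 ± 98.5 in KO1 (7.49 ± 0.34, adjusted p = 1.9e-10) and reached 982 ± 48.2 for KO2 (4.93 ± 0.34, adjusted p = 3.76e-08), the same order of clones as PLAT. TFPI2, a Kunitz inhibitor of plasmin and tissue factor complexes, rose in KO1 (5.76 ± 0.64, adjusted p = 4.25e-06) and KO2 (4.49 ± 0.64, adjusted p = 7.63e-05). F2RL3, the thrombin receptor PAR4, was listed at 0 in WT and averaged 69.8 in KO1 and 61.6 in KO2, both called (adjusted p = 0.000404 and 0.000535). THBD and TFPI2 were lower in the Rescue clones than in KO (-3.56 and -4.67), where serum also differed. Both were lower too in cells labelled KO2_Rescue than in KO2 (-2.24 and -3.14). PLAT changed by 0.02 and 0.01 in these 2 comparisons. The 0.02 is a mean over opposite differences, -1.01 against KO1 alone and 1.05 against KO2 alone. It became 0.42 once all libraries were brought to 1 total.

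Of the clade B serpins other than the members, 9 of 10 were in the table and 3 passed the filter, and 1 rose and 1 fell in KO1, none was called in KO2, and 1 fell with TGF-β. Their median changes were -0.30, 0.15 and -0.89. SERPINB7 averaged 36.0 in WT, 2678 in KO1 and 680 in KO2, with a call in KO1 (6.26 ± 2.11, adjusted p = 0.0287). SERPINB4 fell in KO1 and with TGF-β (-2.81 and -4.20) from 17.4 in WT. No counterpart to the SERPINB2 pattern, at 0 in KO2 and detected in KO1, was among these 3.

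Genes whose log2 levels ran most like each member over the 22 libraries, among 9819 genes with a mean of at least 50, were named as a description. They were PID1, MLPH and SCN8A for PLAT (Pearson's r 0.949, 0.948 and 0.918), and P2RY6 and SYNE1 for SERPINE2 (0.944 and 0.90). For PLAUR they were PML, MGLL and H2AJ (0.947, 0.940 and 0.940), and for PLAU EP400, PHLPP2 and STARD8 (0.873, 0.860 and 0.858). For SERPINB2, which rests on 2 libraries, they were UBE2M, HERC4 and OR14J1 (0.922, 0.886 and 0.886). Among the members, PLAT and PLAUR had r = 0.72. The libraries compared share clones and serum.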

How the data were processed

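RNA was sequenced from TruSeq Stranded mRNA libraries. Per the study's methods and processing notes, the authors quantified reads with Salmon 1.9.0 on the Ensembl 94 cDNA of GRCh38 and used DESeq2 1.26.0. They deposited log2 values (11.32 to 21.28) for 36859 genes, which have the form of variance-stabilized counts, although the transformation is not given in the sources used here. Inverting that form gave normalized counts, totalling 11674491 to 16758645 per library, from about 7700000 to 18400000 reads as read from the step between low values. Read counts per gene were not used in a count test, because the steps are approximate. Counting limits cover counting error only.

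Groups came from the labels. In a supplementary table of the study the headings KO1 and KO2 appear exchanged for nearly all genes listed relative to the library labels, which were used here. Values were log2(normalized count + 1), which understates changes of low genes. Genes with at least 10 normalized counts in 2 libraries entered 1 limma 3.58.1 fit (R 4.3.3, trend, a mean per group) of 22 libraries. The planned test was written for linear normalized values, so it was applied after the inversion. KO and Rescue are means of their 2 clones, and the SE and p of their comparisons leave out the spread between the clones. Scripts were tested on simulated data.

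Members and lists were chosen with earlier results of these data known. Named were the members in every comparison, at most 3 called genes per list with the largest change in KO1, KO2 or TGF-β against WT, and the 3 genes most correlated with each member. THBD, TFPI2 and other list genes are named by that rule. The marker genes, the ubiquitous genes and C10orf55 were named to describe limits, the ubiquitous genes after their values were seen. Symbols came from GENCODE 44 (33878 of 36859 identifiers matched) and promoters from RefSeq (4 of 5 members matched, with 6 starts; PLAT was not matched). Results of some genes are not reported here. Alternatives were other pseudocounts, filters and scalings, fits of only the groups compared, a replicate block, the deposited scale, each KO clone as reference, and each library left out in turn. Deviations of same-numbered libraries from their group means correlated at -0.08 to 0.05 over 55 pairs of groups, so the numbers do not pair libraries.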

Additional observations from a re-analysis of the deposited data

Results flagged for a closer look

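The KO clones, given the same comparison with WT, differed in PLAT by a test of the difference itself. PLAT rose in both clones, but its log2 change from WT was smaller in KO2 than in KO1 by 2.06 (a difference of -2.06 ± 0.12, limma adjusted p = 5.25e-08), and leaving out any 1 of the 4 KO libraries kept it between -2.14 and -1.99. In a supplementary table of the study the KO1 and KO2 headings appear exchanged relative to the library labels for nearly all genes, PLAT among them, so the direction of this difference rests on the labels. Each clone is 1 line, so clone and knockout cannot be told apart in this value.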

How the results depend on the processing

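PLAT and SERPINE2 were called in KO1, KO2 and WT_eGFP against WT under every alternative except the deposited log2 scale, whose shared floor of 11.32 compresses changes. Counts of members in this section leave out SERPINB2, which entered the fit only through its KO1 values. On that scale the members called were 1 in KO1, 1 in KO2, 1 in KO2 against KO1, 2 in KO against TGF-β, and 0 in Rescue against KO, Rescue against WT_eGFP and WT_eGFP against WT. A mean of at least 50 normalized counts removed SERPINB2 and changed no call of the other members. A fit of only the groups compared called 0 members in KO2 against KO1 and lost PLAU in KO2 against WT and in KO against TGF-β. With KO1 alone as reference, PLAT (-1.01) and SERPINE2 (-1 after rounding) were called besides PLAU in Rescue against KO. With KO2 alone, PLAT was called too (1.05). Leaving out 1 library gave 0 to 1 members in KO2_Rescue against KO2, 1 being PLAU without KO2 replicate 2 (log2 change 2.92, adjusted p = 0.0418), and 2 to 4 in KO2 against WT. The same total for every library changed 14 of the places in the group orders of 4 members, PLAT in KO2 moving from place 5 to 7 and SERPINE2 in KO1 from 6 to 9, and gave 0.42 for PLAT in Rescue against KO (adjusted p = 0.00197).

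Signs turned mostly for changes near 0. PLAT in Rescue against KO ranged from -0.02 (without KO1 replicate 2 or Rescue1 replicate 1) to 0.07 with 1 library left out. PLAT became -0.04 on the deposited scale and -1.01 against KO1 alone. For SERPINB2 the fit gave 0.39 in Rescue against KO2 alone, which is not read as a change. That value rested on 1 Rescue1 library at 1.97 normalized counts, below its 3-read limit of 3.45, with both KO2 libraries listed at 0. PLAU with TGF-β became -0.02 with the same total and ranged from -0.56 (without WT replicate 1) to 0.99. PLAU in Rescue against WT_eGFP became 0.01 with the same total and ranged from -0.82 to 0.61 (without WT_eGFP replicate 2), and in KO2 against KO1 from -2.43 to 0.01 (without KO2 replicate 1). SERPINE2 in KO2 against KO1 became 0.13 with the same total and ranged from -0.17 to 0.08 (without KO1 replicate 2). PLAT in KO2_Rescue against KO2 ranged from -0.04 (without KO2 replicate 2) to 0.06, and PLAUR in WT_eGFP against WT from -0.40 to 0.10 (without WT replicate 2). Against WT_eGFP, PLAU in WT_SOX2 ranged from -0.91 to 0.53, PLAUR from -0.06 to 0.42 in WT_SOX2 and from -0.06 to 0.23 in WT_PRRX1, PLAT in WT_PRRX1 from -0.03 to 0.22, and SERPINE2 in WT_OCT2 from -0.06 to 0.11. The cause was not tested for these values.

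With the replicate block, no call changed among the 4 members detected in every library. Over all genes, a fit of only the groups compared called 0 with TGF-β against 1143 and 1 in KO2 against KO1 against 1016, and the deposited scale called 178 in KO1 against 3653, 94 in KO2 against 2378, 134 in KO against TGF-β against 2939, 96 in Rescue against KO against 3392, 35 in Rescue against WT_eGFP against 1915, 36 in WT_eGFP against WT against 1856 and 35 in KO2_Rescue against KO2 against 608. KO2 against KO1 called 1745 without KO1 replicate 1. The 3 transduction comparisons called 36 to 41 genes without WT_eGFP replicate 2 and 0 in fits of only the groups compared. With 2 libraries a group, PLAU changes of up to 1.69 on the log2 scale did not pass the test.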
